A study of Mus musculus with 12 samples.

Results

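Endoplasmic reticulum (ER) folding and degradation genes were compared between primary colonic myofibroblasts that lack TNFR1 and heterozygous control cells. The 33 genes were taken by symbol from the deposited table of 24411 gene symbols. They encode stress sensors, the transcription factor XBP1, chaperones, disulfide isomerases, the ER-associated degradation machinery and the translocon. All 33 were among the 12146 genes with enough counts to be tested.

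The study asked about TNFR1, a receptor of the inflammatory cytokine TNF that is encoded by Tnfrsf1a, in the colonic mesenchyme. Total RNA from 12 samples was sequenced from polyadenylated transcripts, 6 labelled TNFR1-/- (knockout) and 6 labelled control, TNFR1+/-. Every sample came from untreated myofibroblasts of the distal colon of 16-week-old C57BL/6 mice, expanded in culture, seeded in Matrigel and collected at day 5. Because the controls are heterozygous, both groups carry a null allele, and a wild-type level was not measured. Passage numbers are labelled only as a span shared by the groups, and the labels do not say whether replicates came from separate mice or cultures, so p-values measure only the spread between these samples.

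The ER folds secreted and membrane proteins, which in myofibroblasts include large amounts of procollagen and other matrix. Polypeptides enter through the Sec61 translocon, are folded by the HSP70 protein BiP, lectin chaperones and disulfide isomerases, and are sent back to the cytosol for degradation when folding fails, a route called ER-associated degradation (ERAD). Unfolded protein activates the sensors IRE1, PERK and ATF6. Spliced XBP1 and cleaved ATF6 then raise transcription of chaperone and ERAD genes, in part through the ER stress response element (ERSE) in their promoters, and PERK acts through ATF4 and CHOP.

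Nearly all of the 33 genes were lower in the knockout libraries, with a fold that ranged widely with the gene. In a fit over all 12146 genes, 28 of the 33 (84.8%) fell, none rose and 5 did not pass the test (Ern1, Eif2ak3, Edem3, Derl2 and Spcs1). Over all tested genes 21.6% fell, 21.4% rose and 43.0% passed the test in either direction. Here and throughout, a gene is said to fall or rise when the Benjamini-Hochberg adjusted p of the edgeR quasi-likelihood test was below 0.05. The median log2 difference, knockout minus control, was -1.17 over the 33 genes and 0.02 over all tested genes. At an unadjusted p under 0.05 there were 30 of the 33 genes and 6217 of the 12146 tested genes. For 22 of the 33, every knockout library lay below every control library, and for none did every knockout library lie above. Over all tested genes the 2 groups did not overlap, in either direction, for 23.0%.

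The libraries of each group were not alike, and over all genes control 6 stood closer to knockout 1 to 4 than to the other controls. By their correlations over all genes the 12 libraries form 4 sets, of which control 6 is one by itself and the others are knockout 1 to 4, knockout 5 and 6 and control 1 to 5. Spearman coefficients of gene levels were 0.989 to 0.998 within sets. Those of control 6 were 0.968 to 0.976 with knockout 1 to 4 and 0.952 to 0.954 with control 1 to 5. With knockout 5 and 6 they were only 0.882 to 0.884. Knockout 1 to 4 read 0.926 to 0.927 with knockout 5 and 6, of the same genotype label. With control 1 to 5 they read 0.937 to 0.941. Coefficients between knockout 5 and 6 and control 1 to 5 were 0.889 to 0.894. The 33 genes together took 1.13% to 1.17% of all counts in knockout 1 to 4, 0.699% in knockout 5 and 0.690% in knockout 6. They took 3.96% to 4.28% in control 1 to 5 and 1.32% in control 6. Control 6 was therefore the lowest control and stood just above the highest knockout library in the summed share. Whether this reflects the cells, the culture or the library was not tested.

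**Figure D1:**
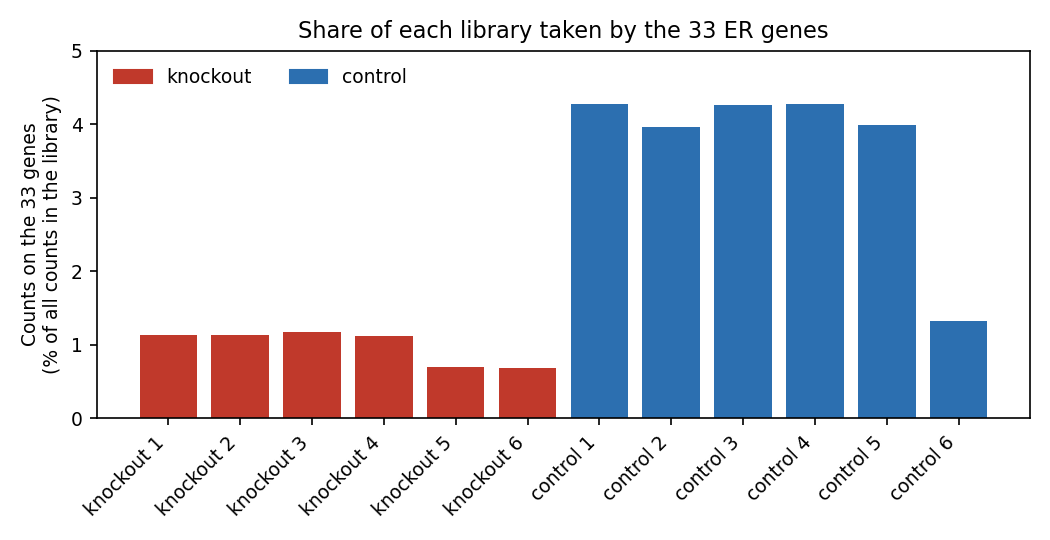
Share of all counts (%) that fell on the 33 ER genes in each of the 12 libraries, 1 bar per library, knockout in red and control in blue. The bars of control 1 to 5 stand between 3.96% and 4.28%, while control 6 (1.32%) is near knockout 1 to 4 (1.13% to 1.17%) and knockout 5 and 6 are lowest (0.699% and 0.690%).

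Facts of the libraries that touch these values are as follows. Totals were 6543013 to 9937008 counts in knockout and 11890729 to 16458689 in control libraries. Tnfrsf1a, the targeted gene, read 40.6 to 46.1 CPM (counts scaled to a common library size) in knockout libraries, 73.5 to 81.3 in control 1 to 5 and 54.9 in control 6, so the libraries labelled knockout still hold Tnfrsf1a counts. The ribosomal precursor Rn45s took 7.01% and 8.25% of counts in knockout 5 and 6, at least 1.63% in the other knockouts, at most 1.19% in control 1 to 5 and 0.351% in control 6. Summed levels of 12 myofibroblast markers were 33600 to 34200 CPM in knockout 1 to 4, 13700 to 13800 in knockout 5 and 6, 25100 to 26200 in control 1 to 5 and 35700 in control 6; 4 of these markers rose, 3 fell and 5 did not pass the test described above. In bulk RNA, fewer cells of a type and less RNA per cell cannot be told apart.

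Because of control 6, every difference was also computed with the controls split. Without control 6, 29 of the 33 genes fell, against 24.5% of 12173 tested genes, and the median log2 difference was -1.29. With control 6 as the only control, an alternative chosen after the data were seen, none of the 33 passed the test, against 0.111% of 12661 genes that fell (14 genes). The median log2 difference over the 33 was then -0.42, against 0.03 over all tested genes. When each of the 4 sets was summed to 1 library, none of the 33 and none of 13132 genes passed the test. An unadjusted p under 0.05 was reached by 10 of the 33 and by 1047 of the 13132, and the median over the 33 was -1.18. Both of these fits have few libraries, 1 control in the first and 2 summed libraries per group in the second. What part the few libraries, or the size of the differences, had in the number of genes that passed was not tested. The calls given below count control 1 to 5 as 5 separate samples, and rest on that.

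**Figure D2:**
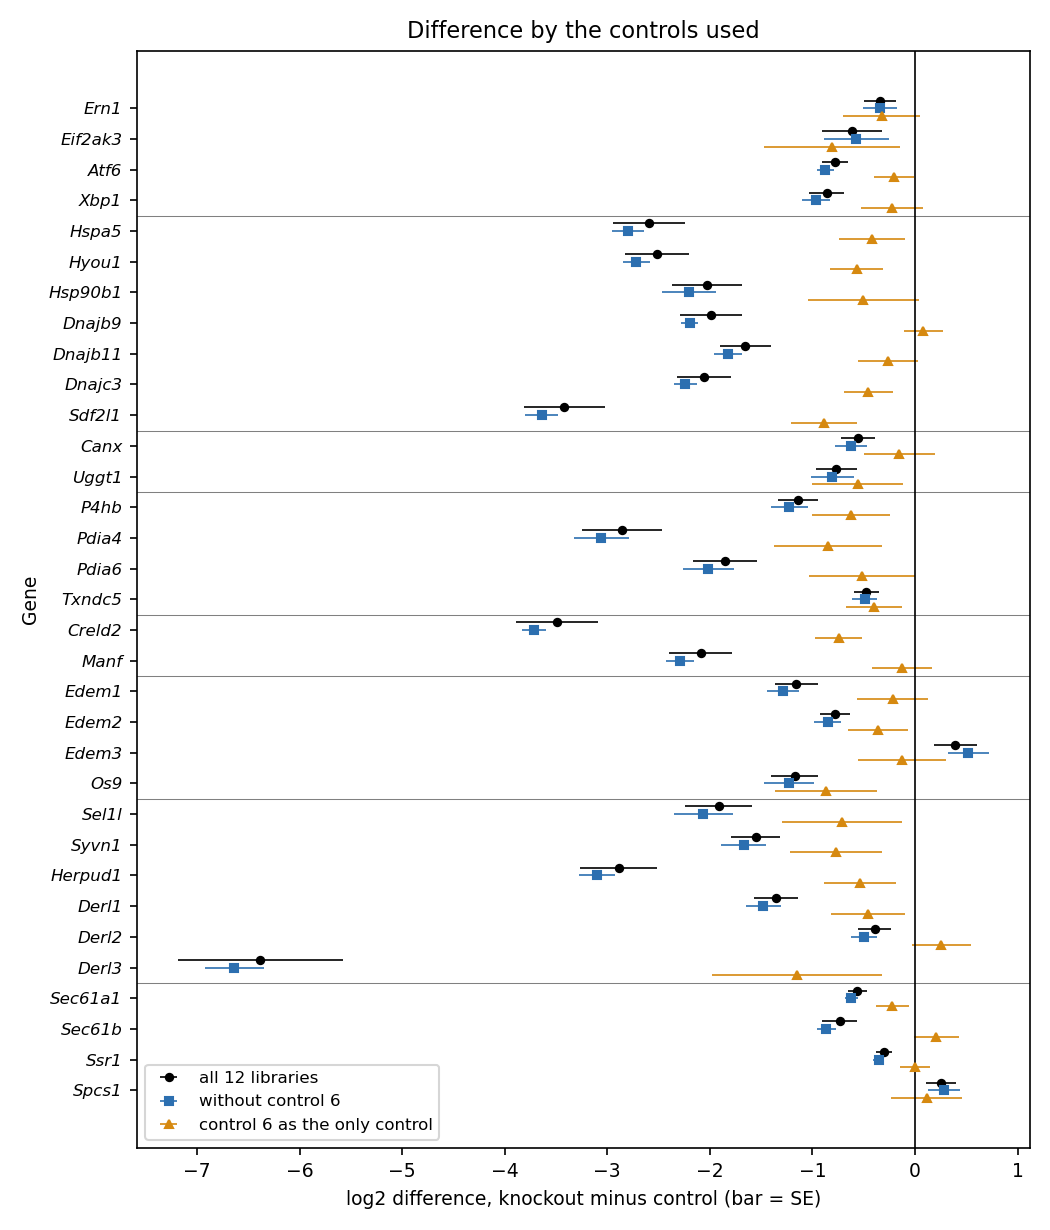
Log2 difference, knockout minus control, of each of the 33 ER genes (points, with SE as bars) with all 12 libraries, without control 6, and with control 6 as the only control; lines separate roles. Black and blue points nearly coincide, whereas orange points lie closer to 0 for most genes, with the Hspa5 value at -2.59, -2.80 and -0.42 in turn.

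Promoter sequence is shown first for 5 of the genes that fell, since it carries elements through which ER stress factors are known to act: ERSE in Hspa5, Creld2, Derl3 and Hsp90b1, and the related ERSE-II in Herpud1. The stretches are from RefSeq, build GRCm38.p6, written 5′ to 3′ on the gene's own strand. Capitals mark the CCAAT and CCACG parts of ERSE, or their reverse complements ATTGG and CGTGG where it lies on the opposite strand. In Herpud1 they mark the ATTGG and CCACG parts of ERSE-II, which lies on the gene's own strand. They cover chr2:34771965-34772089 (plus strand), chr15:88819460-88819598 (plus), chr10:75893182-75893320 (plus), chr10:86705473-86705694 (minus) and chr8:94386317-94386428 (plus), all upstream of the annotated start. These coordinates belong to the RefSeq table and not to the build behind the counts, which is uncertain.
Hspa5: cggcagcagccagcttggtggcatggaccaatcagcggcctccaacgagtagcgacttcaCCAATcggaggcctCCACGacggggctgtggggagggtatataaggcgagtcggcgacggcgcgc
Creld2: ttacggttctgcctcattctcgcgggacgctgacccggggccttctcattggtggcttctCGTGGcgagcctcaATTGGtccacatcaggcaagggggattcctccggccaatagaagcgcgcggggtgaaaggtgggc
Derl3: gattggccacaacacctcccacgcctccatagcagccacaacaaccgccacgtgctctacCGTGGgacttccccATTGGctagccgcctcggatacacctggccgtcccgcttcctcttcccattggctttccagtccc
Hsp90b1: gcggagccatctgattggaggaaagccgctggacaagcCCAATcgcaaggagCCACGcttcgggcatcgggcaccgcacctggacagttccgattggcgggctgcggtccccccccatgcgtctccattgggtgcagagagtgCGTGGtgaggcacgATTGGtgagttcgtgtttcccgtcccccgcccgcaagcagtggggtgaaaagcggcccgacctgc
Herpud1: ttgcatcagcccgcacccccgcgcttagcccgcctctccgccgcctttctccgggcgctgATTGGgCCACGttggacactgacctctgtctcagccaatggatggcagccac

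The element was searched on both strands in the window from 250 bases before to 50 bases after each start. A window was given for 28 of the 33 genes; Atf6, Derl1, Hyou1, Manf and Sec61a1 have none in the table. ERSE, searched as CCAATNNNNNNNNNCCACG, was present in 8 of the 28 (28.6%): Hspa5, Hsp90b1, Pdia6, Canx, Dnajc3, Creld2, Syvn1 and Derl3. The same letters were in 37 of 27025 genes with a window (0.137%). Hsp90b1 held 2 copies, 1 on each strand. In Hspa5 the match began 65 bases before the start, and in Creld2, where it lies on the opposite strand, 126 bases before.

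ERSE-II, searched as ATTGGNCCACG, was present in Herpud1 and Dnajb11, 2 of 28 (7.1%), against 0.0444% of all genes with a window. ERSE and ERSE-II share the CCACG part, and no gene of the 28 with a window held both. The UPRE core TGACGTG was present in Hspa5 and Txndc5, against 2.22% of all genes with a window. The 8 genes with ERSE had a median log2 difference of -2.04, from -6.38 (Derl3) to -0.55 (Canx), and all 8 fell. The 20 others with a window, among them the ERSE-II genes Herpud1 (-2.89) and Dnajb11 (-1.65), had a median of -0.82. Of 9 further tested genes with ERSE that are not among the 33, 6 fell, none rose and 3 did not pass, with a median of -0.67; the calcium-binding chaperone gene Calr (log2 difference -1.74) was among those that fell. Of 6 such genes with ERSE-II, 2 fell, none rose and 4 did not pass (median -0.32). Of 303 with the UPRE core, 61 fell, 64 rose and 178 did not pass (median 0.01). A match says only that these letters stand in the window. Only exact letters were searched, so a gene without a match may still hold a variant of the element.

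Among the genes of the stress sensors and of the downstream factor XBP1, Atf6 and Xbp1 fell. The 2 kinase sensor genes did not pass the test. Atf6, which encodes the sensor that is cleaved in the Golgi to release a transcription factor, read 97.7 to 128 CPM in knockout (median 110.3) and 129.5 to 211 in control libraries (median 207). No knockout library reached any control, but control 6 (129.5) nearly touched knockout 4 (128). The log2 difference of Atf6 was -0.78 (SE 0.13, adjusted p 0.000426).

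Xbp1 encodes the factor whose transcript IRE1 splices; counts per gene do not show splicing. Its level was 70.0 to 126 CPM in knockout libraries (median 106) and 115.0 to 194 in controls (median 192). Control 6 (115.0) lay below knockout 3 (126), and control 1 to 5 (189.9 to 194) lay above every knockout library. Xbp1 fell by 0.86 on the log2 scale (SE 0.17, adjusted p 0.00135).

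Ern1, the gene of IRE1, read 12.2 CPM in knockout 3, 19.8 to 21.1 in knockout 1, 2 and 4, 26.0 and 27.7 in knockout 5 and 6, and 25.2 to 28.9 in the 6 controls. Knockout 5 and 6 were thus at the control level, in contrast to most of the other genes, for which they were lowest. The log2 difference was -0.34 (SE 0.16, adjusted p 0.0952), and Ern1 fell without knockout 6 (-0.43, adjusted p 0.0365) and without knockout 5 and 6 (-0.54, adjusted p 0.00525). Eif2ak3, the gene of PERK, showed the opposite order among the knockouts, with 39.0 to 41.8 CPM in knockout 1 to 4 and only 13.2 and 12 in knockout 5 and 6. All 6 controls were higher, at 43.2 to 54.8 CPM, with control 6 the highest. Its log2 difference of -0.62 (SE 0.30) had an adjusted p of 0.109. Eif2ak3 fell with limma-voom (-0.82, adjusted p 0.0473) and without knockout 5 and 6, where the difference was smaller (-0.23, adjusted p 0.0213).

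All 7 genes of the HSP70 and HSP90 chaperone system fell. Hspa5 encodes BiP, the HSP70 of the ER lumen that also holds the sensors inactive. The 6 knockout libraries, in order of replicate, read 1664, 1664, 1779.7, 1668, 1077 and 1051 CPM. The 6 controls, in order, read 10636, 9831, 10639, 10714, 9929 and 1978 CPM. Control 6 was above every knockout library but at a level 5.24-fold below that of control 1 to 5. The mean was 1484 ± 328 CPM (SD, n = 6) in knockout and 8954 ± 3439.6 CPM in control, a fitted fold of 6.03 (log2 difference -2.59, SE 0.35, adjusted p 0.000137).

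Hsp90b1 encodes GRP94, the HSP90 of the ER. Knockout 1 to 4 read 2273 to 2316 CPM and knockout 5 and 6 read 953 and 941, while control 1 to 5 read 8162 to 8763 and control 6 read 2613. Here the knockouts themselves split, and control 6 was nearer to knockout 1 to 4 than to any other control. The log2 difference was -2.03 (SE 0.34, adjusted p 0.000557). Hyou1, the gene of the large HSP70-like protein GRP170 that acts as nucleotide exchange factor of BiP, read 253 to 387 CPM in knockout (median 374) and 503 to 2342 in control (median 2206). It fell by 2.52 on the log2 scale (SE 0.31, adjusted p 7.94e-05).

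The J-domain co-chaperones of BiP moved in the same direction. Dnajb9 (ERdj4) read 36.4 to 48.9 CPM in the 6 knockout libraries and 170.2 to 198 in control 1 to 5, and control 6 (38.3) was inside the knockout range. Its log2 difference was -1.99 (SE 0.30, adjusted p 0.000287), but it was 0.080 when control 6 was the only control. Dnajc3 (p58IPK), also known as an inhibitor of PERK, read 159 to 229 CPM in knockout (median 211) and 274 to 989.6 in control (median 931), with a log2 difference of -2.06. Dnajb11 (ERdj3) read 109 to 179 CPM in knockout (median 163) and 179.6 to 546 in control (median 523), with a log2 difference of -1.65. For Dnajb11 the highest knockout library and control 6 nearly touched.

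Sdf2l1, which encodes a partner of ERdj3 in the BiP cycle, had the largest difference of the 7. Knockout libraries read 19.5 to 40.0 CPM (median 32.6), control 1 to 5 read 358 to 396 and control 6 read 56.7. All knockouts lay below control 6, and for Sdf2l1 control 6 exceeded knockout 1 to 4 by 1.64-fold. The log2 difference over all libraries was -3.42 (SE 0.39, adjusted p 4.75e-05).

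**Figure D3:**
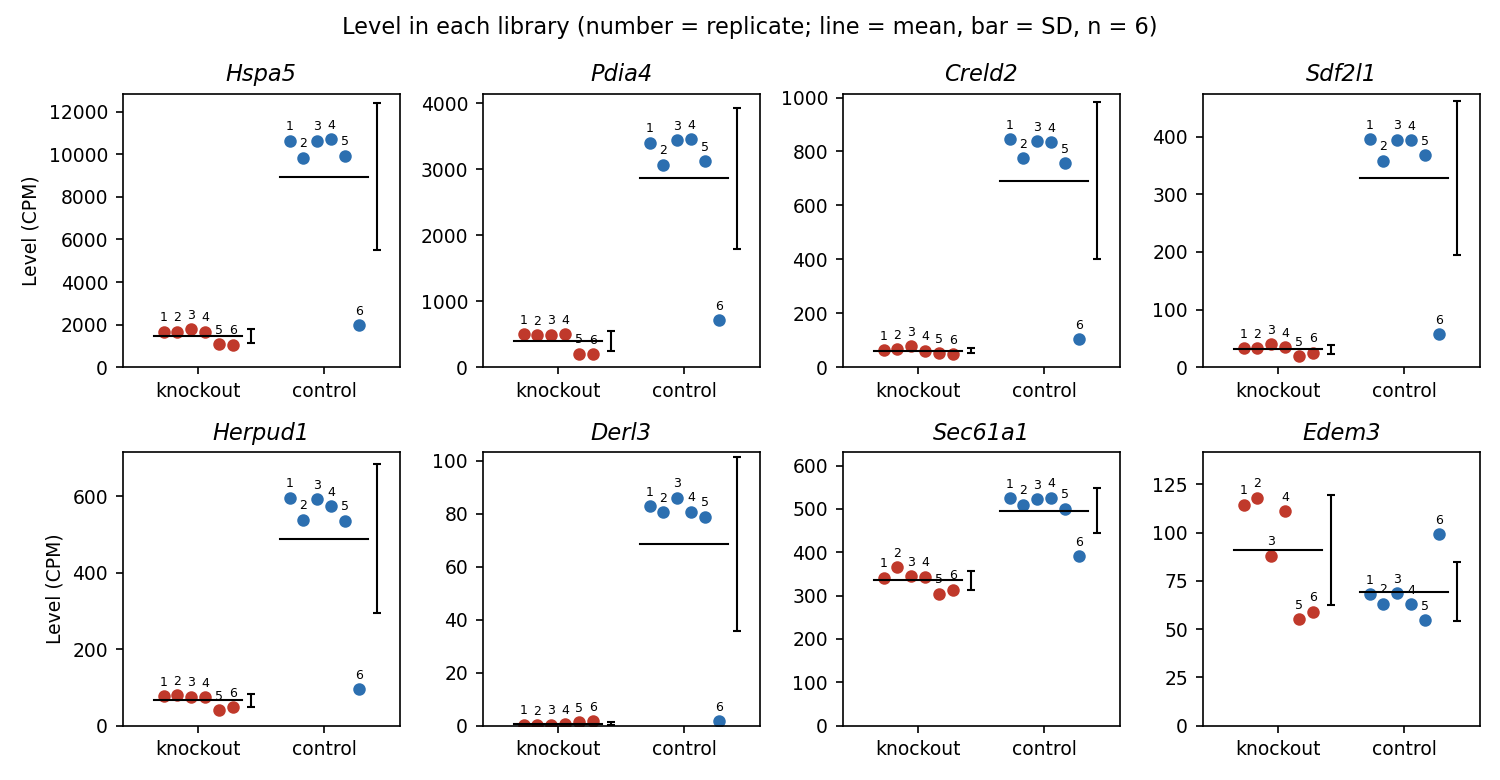
Level in CPM of 8 of the ER genes in each library, with the group mean as a line and the SD as a bar (n = 6); the number beside a point is the replicate. In Hspa5, Pdia4, Creld2, Sdf2l1, Herpud1 and Derl3 control 6 lies far below control 1 to 5, and in Edem3 the groups overlap.

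The lectin quality control genes fell by less. Canx encodes calnexin, the membrane lectin that holds newly made glycoproteins, and Uggt1 the glucosyltransferase that sends misfolded glycoproteins back to it. Canx read 1146 to 1237 CPM in knockout 1 to 4, 737 and 717 in knockout 5 and 6, 1496 to 1677 in control 1 to 5 and 1160.4 in control 6. The groups overlapped for Canx through control 6, and the log2 difference was -0.55 (SE 0.17, adjusted p 0.0183). Uggt1 read 127 to 278 CPM in knockout (median 246) and 319.6 to 402 in control (median 375), with no overlap. It fell by 0.77 on the log2 scale (SE 0.20, adjusted p 0.00818).

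All 4 disulfide isomerase genes fell, and in none did the groups overlap. Pdia4 (ERp72) read 496, 483, 489.6, 499.9, 201 and 201 CPM in knockout 1 to 6, 3064 to 3455 in control 1 to 5 and 711 in control 6. The fall, 2.86 on the log2 scale (SE 0.39, adjusted p 0.000142), was the largest of the 4. Pdia6 (P5), which also binds the luminal side of IRE1, read 262 to 664 CPM in knockout (median 604) and 719 to 2083 in control (median 2032), with a log2 difference of -1.85 (SE 0.31).

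P4hb, the gene of protein disulfide isomerase that is also the beta subunit of collagen prolyl 4-hydroxylase, read 737 to 1416 CPM in knockout (median 1305) and 1753 to 2687 in control (median 2644). Control 6 stood between the sets, 1.52-fold below control 1 to 5 and 1.32-fold above knockout 1 to 4. Its log2 difference was -1.14 (SE 0.20, adjusted p 0.000625). Txndc5 (ERp46) read 518 to 556 CPM in knockout 1 to 4, 369.6 and 363 in knockout 5 and 6 and 630.5 to 678 in the 6 controls. For Txndc5 control 6 was nearer to the other controls than to any knockout library, and the log2 difference was -0.48 (SE 0.12, adjusted p 0.00736).

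Creld2 and Manf encode small proteins that are retained in the ER and secreted under stress. Levels of Creld2 in knockout 1 to 6 were 62.6, 67.0, 78.0, 61.7, 51.9 and 48.7 CPM, and in control 1 to 6 they were 846, 776, 838, 834, 757 and 103 CPM. The control libraries fell into a tight group of 5 and control 6, which was 7.86-fold below it and still above every knockout. Creld2 fell by 3.49 on the log2 scale (SE 0.40, adjusted p 4.77e-05), a fitted fold of 11.2. Manf read 124 to 221 CPM in knockout (median 185), 798 to 887 in control 1 to 5 and 189.0 in control 6. Control 6 was inside the knockout range for Manf, whose log2 difference was -2.09 (SE 0.31, adjusted p 0.000236) with all libraries and -0.13 with control 6 as the only control.

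Of the ERAD lectins and mannosidases, 3 of 4 fell. Edem1, which encodes a mannosidase-like protein that marks misfolded glycoproteins for removal, read 91.6 to 159 CPM in knockout (median 157), 313 to 349 in control 1 to 5 and 158 in control 6. Control 6 lay within the range of knockout 1 to 4 (156 to 159) for Edem1, and the log2 difference was -1.16 (SE 0.21, adjusted p 0.000942). Os9, a lectin that delivers such glycoproteins to the ligase, read 60.9 to 161 CPM in knockout (median 155) and 233 to 307 in control (median 299). The groups did not overlap for Os9, which fell by 1.17 on the log2 scale (SE 0.23, adjusted p 0.00155).

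Edem2, whose product makes the first mannose cut, read 16.5 to 28.3 CPM in knockout and 29.8 to 44.4 in control, with a log2 difference of -0.78 (SE 0.14, adjusted p 0.000968). Edem3, of the same family, had a positive log2 difference, as did Spcs1 alone among the other genes. It read 115, 118, 88.1 and 111 CPM in knockout 1 to 4, 55.3 and 59.1 in knockout 5 and 6, 54.7 to 68.7 in control 1 to 5 and 99.2 in control 6. Knockout 1 to 4 and control 6 were high and the other libraries low. The log2 difference was 0.39 (SE 0.21, adjusted p 0.150), and without control 6 Edem3 rose (0.52, SE 0.20, adjusted p 0.0495).

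The ERAD ligase and channel genes fell in 5 of 6 cases. Sel1l encodes the adaptor and Syvn1 the ubiquitin ligase (HRD1) of the main ERAD complex. Sel1l read 259.9 to 318 CPM in knockout 1 to 4, 116 and 108 in knockout 5 and 6, 934 to 1053 in control 1 to 5 and 388 in control 6. Syvn1 read 34.9 to 84.8 CPM in knockout (median 78.2) and 113 to 229 in control (median 209). The groups did not overlap in either gene, and log2 differences were -1.91 (SE 0.33) for Sel1l and -1.55 (SE 0.24) for Syvn1, with adjusted p of 0.00061 and 0.000334.

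Herpud1, which encodes a ubiquitin-like membrane protein that organises the HRD1 complex, read 77.5, 79.0, 75.6, 75.2, 41.1 and 47.9 CPM in knockout 1 to 6. Control 1 to 5 read 537 to 597 CPM and control 6 read 95.7. Control 6 was just above the highest knockout library (79.0) and 5.94-fold below control 1 to 5. Herpud1 fell by 2.89 on the log2 scale (SE 0.37, adjusted p 0.0001).

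The derlins, which form part of the channel through which substrates leave the ER, spanned the widest range. Derl3 had 4, 2, 2, 6, 13 and 16 counts in knockout 1 to 6 and 1134, 1071, 1187, 1155, 967 and 28 counts in control 1 to 6. In CPM these are 0.257 to 1.66 in knockout (median 0.529), 78.9 to 86.1 in control 1 to 5 and 1.78 in control 6. The gene was thus nearly silent in 7 libraries and well expressed in 5, and here knockout 5 and 6 were above knockout 1 to 4. Its log2 difference was -6.38 (SE 0.81, adjusted p 8.79e-05), and -1.15 (SE 0.83, adjusted p 0.580) with control 6 as the only control.

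Derl1 read 113 to 211 CPM in knockout (median 196) and 237 to 500.4 in control (median 476), and fell by 1.35 on the log2 scale (SE 0.21, adjusted p 0.000364). Derl2 read 45.1 to 76.7 CPM in knockout, 79.5 to 88.6 in control 1 to 5 and 49.4 in control 6. Control 6 was inside the knockout range, and the log2 difference of Derl2, -0.39 (SE 0.16), had an adjusted p of 0.0596. Without control 6 Derl2 fell (-0.49, adjusted p 0.00634).

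The translocon genes had the smallest median log2 difference of the roles (-0.43), though not each of them differed less than every other gene. Sec61a1, the gene of the pore-forming subunit, read 305 to 365 CPM in knockout (median 343) and 391 to 526 in control (median 516) with no overlap, and a log2 difference of -0.56 (SE 0.09, adjusted p 0.00051). Sec61b, a small subunit of the same channel, read 53.5 to 79.4 CPM in knockout, 112 to 122 in control 1 to 5 and 55.4 in control 6. It fell by 0.73 on the log2 scale (SE 0.17, adjusted p 0.0045), but the value was 0.21 with control 6 as the only control. For Sec61b control 6 lay among the lowest knockouts.

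Ssr1, a subunit of the translocon-associated TRAP complex, had the smallest difference of the 28 genes that fell. Its level was 331 to 356 CPM in knockout (median 346), 433 to 452 in control 1 to 5 and 345 in control 6, with a log2 difference of -0.30 (SE 0.08, adjusted p 0.0107). Spcs1, a subunit of the signal peptidase, read 78.1 to 161 CPM in knockout and 88.0 to 106 in control. Its groups overlapped, and the log2 difference was 0.25 (SE 0.15, adjusted p 0.181). As for Edem3, knockout 1 to 4 were highest, followed by control 6, control 1 to 5 and knockout 5 and 6 (128, 106, 94.4 and 84.2 CPM in the summed sets). Both genes rose without knockout 5 and 6, with log2 differences of 0.43 for Spcs1 (adjusted p 0.00306) and 0.64 for Edem3 (adjusted p 0.00475).

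The 4 sets of libraries show what the genes shared. Set against control 1 to 5, the median log2 difference over the 33 genes was -1.08 for knockout 1 to 4 and -2.06 for knockout 5 and 6. Set against control 6, it was -0.23 and -0.78. Medians over all tested genes in these 4 contrasts were between -0.02 and 0.01. The 4 contrasts share libraries and are not separate tests. All 4 were negative for 24 of the 33 genes and mixed in sign for 9 (Ern1, Dnajb9, Canx, Manf, Edem3, Derl2, Sec61b, Ssr1 and Spcs1). The signs were not counted over all tested genes, so no background stands beside this count.

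Control 1 to 5 were all above all 6 knockouts for 30 of the 33 genes, which was not counted over all tested genes. The median coefficient of variation over the 33 genes was 4.56% within control 1 to 5 and 4.77% within knockout 1 to 4. Control 6 was above all 6 knockouts for 22 genes and within their range for 11, which was likewise not counted over all tested genes. It was below control 1 to 5 for 29 of the 33, against 41.5% of all tested genes. Knockout 5 and 6 were both below knockout 1 to 4 for 28 of the 33, against 36.6% of all tested genes, and both above for Ern1 and Derl3. The difference between the knockout sets had a median of -0.61 over the 33 genes, beside the lower myofibroblast marker sum and the higher Rn45s share of knockout 5 and 6 given above. The part of these in the result was not tested.

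Differences over 2-fold were counted in the same contrasts. Control 1 to 5 exceeded knockout 1 to 4 by more than 2-fold for 18 of the 33 genes (7.29% of all tested genes) and knockout 5 and 6 for 25 (15.8%). Control 6 exceeded knockout 1 to 4 by that much for 1 gene, Derl3 (4.26% of all tested genes), and knockout 5 and 6 for 13 (18.4%). Control 1 to 5 exceeded control 6, of the same labelled genotype, by more than 2-fold for 17 of the 33 (4.46%).

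**Figure D4:**
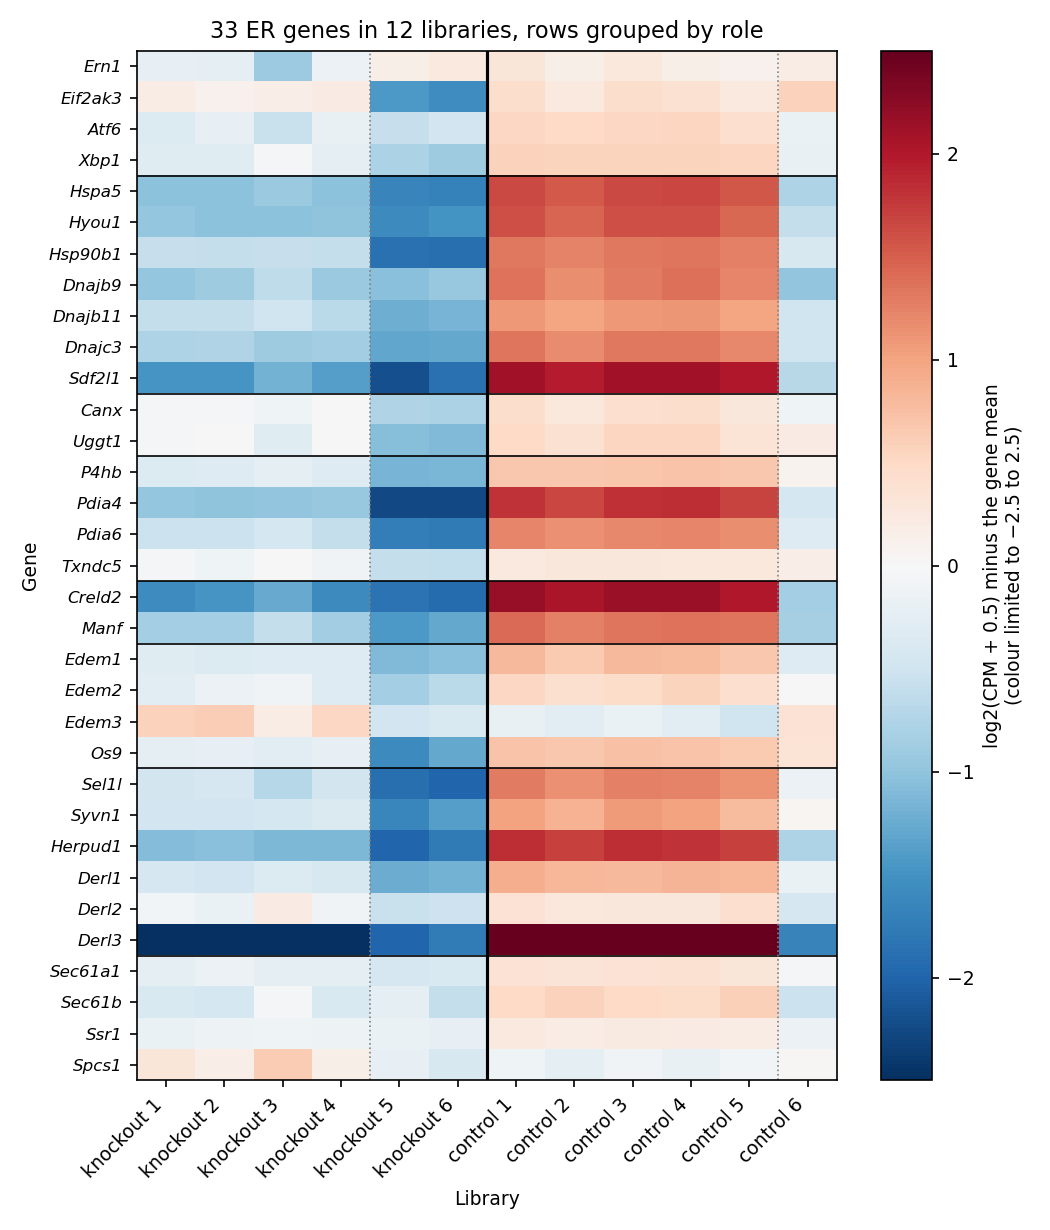
Level of each of the 33 ER genes in the 12 libraries, coloured by log2(CPM + 0.5) minus the mean of the gene over the libraries, with genes grouped by role. Control 1 to 5 are above every knockout column for 30 of the 33 genes, whereas control 6 is within the knockout range for 11. Neither was counted over all tested genes.

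By role, the medians of the log2 difference over all 12 libraries were -2.79 for the 2 secreted stress proteins, -2.06 for the 7 chaperones, -1.73 for the 6 ERAD ligase and channel genes and -1.50 for the 4 isomerases. They were -0.97 for the 4 ERAD lectins and -0.70 for the 4 genes of the sensors and Xbp1. For the 2 lectin quality control genes the median was -0.66, and for the 4 translocon genes -0.43. Chaperones, secreted proteins and the ERAD ligase thus differed more than the translocon and the sensors with Xbp1. That is a description of these lists, with no test between them.

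Other genes of the same pathways were counted in the same fit. Of 23 other ER chaperones and folding enzymes, 14 fell, none rose and 9 did not pass (median log2 difference -0.51). Cnpy3, a co-factor of GRP94, had a log2 difference of -1.22, Ppib, the ER cyclophilin, -1.35, and Sil1, a nucleotide exchange factor of BiP, -1.12, each with no overlap between the groups. Of 25 other translocon, glycosylation and signal peptidase genes, 17 fell, none rose and 8 did not pass (median -0.59). The named examples are subunits of oligosaccharyltransferase, the enzyme that attaches N-glycans: Rpn1 (-1.37), Ddost (-0.88) and Krtcap2 (-0.76).

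The 28 other ERAD genes had a median close to 0. Of these, 8 fell, 2 rose and 18 did not pass, with a median of -0.01. The ERAD factor genes Tmub1 (-0.75), Foxred2 (-0.82) and Selk (-1.03) fell, while the ubiquitin-conjugating enzyme gene Ube2j1 (0.40) and Nploc4 (0.21), a cofactor of the ATPase VCP, rose. Of 12 other regulators of the unfolded protein response, 5 fell, 1 rose and 6 did not pass (median -0.13). Wfs1 (-1.21), Tmbim6 (-0.63) and Atf6b (-0.52) fell and Bak1 (0.31), an apoptosis effector gene, rose.

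In the PERK-ATF4-CHOP arm, 10 of 12 genes fell, none rose and the median was -1.56. Ddit3, the gene of CHOP, read 59.6 to 87.0 CPM in knockout, 778 to 815 in control 1 to 5 and 97.7 in control 6. Its log2 difference was -3.25 (SE 0.40, adjusted p 7.4e-05), and control 6 was again just above the knockouts. Nupr1, a stress-induced chromatin protein gene, had a log2 difference of -1.67 and followed the same order of sets, with 75.7 CPM in control 6 and 198 to 207 in control 1 to 5. Cebpb, which encodes a partner of CHOP, did not: control 6 (107 CPM) stood beside control 1 (109), and the log2 difference was -1.46.

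Of 20 genes of procollagen folding and export, 10 fell, none rose and 10 did not pass (median -0.45). P4ha2, the gene of a catalytic subunit of prolyl 4-hydroxylase, had a log2 difference of -1.45, Mia3, the gene of the collagen export receptor TANGO1, -0.94, and Mcfd2, a cargo receptor gene, -0.71. In P4ha2 control 6 (249.8 CPM) stood near the other controls (290.2 to 325) and above knockout 1 to 4 (139.9 to 147). Over all 6 lists, 64 of 120 tested genes fell, 3 rose and 53 did not pass, with a median of -0.43.

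**Figure D5:**
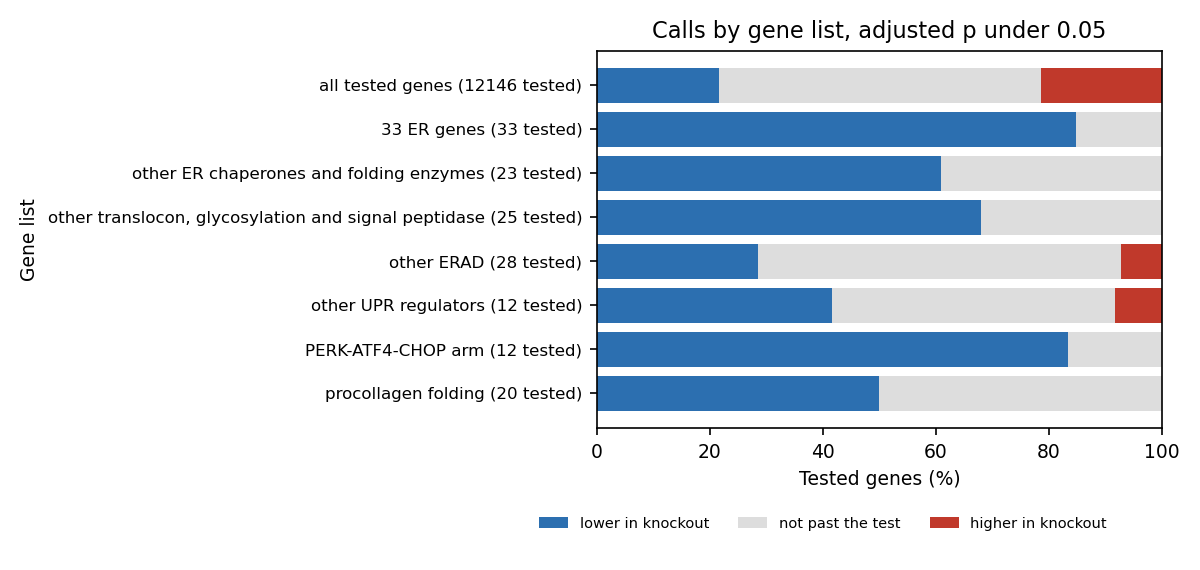
Share of tested genes (%) that were lower, not past the test or higher in knockout, for all tested genes, the 33 ER genes and the 6 lists of other pathway genes. Lower genes make up 21.6% of all tested genes and 84.8% of the 33.

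Markers of other cells were read beside these values. Secretory cells carry high levels of the same ER genes. Plasma and B cell markers summed to 102 to 138 CPM in knockout, 94.2 to 101 in control 1 to 5 and 215 in control 6; Sdc1, which fibroblasts also express, made up 96.3% of this, and 8 of the 10 markers had at most 3 counts in any library. The defining genes Ms4a1, Pou2af1 and Tnfrsf17 were at 0 everywhere. Goblet and Paneth cell markers summed to 1.76 to 2.85 CPM in knockout and 3.51 to 5.11 in control, with 8 of 11 at 3 counts or fewer and 6 at 0. Epithelial markers summed to 15.7 to 23.6 CPM in knockout, 7.83 to 10.1 in control 1 to 5 and 22.3 in control 6, with Epcam, Cdh1, Vil1 and Cdx2 at no more than 3 counts.

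Macrophage and leukocyte markers moved with the groups, at 41.3 to 63.6 CPM in knockout, 88.9 to 101 in control 1 to 5 and 140 in control 6. Of the 11 tested, 8 were lower in knockout and none higher. Endothelial markers summed to 13.4 to 32.3 CPM in knockout, 8.89 to 12.5 in control 1 to 5 and 24.5 in control 6. Of the 3 tested, Flt1 rose (log2 difference 1.88), 1 fell and 1 did not pass. Enteric glia and neuron markers summed to 42.7 to 50.5 CPM in knockout, 50.3 to 54.7 in control 1 to 5 and 57.0 in control 6; of 4 tested, 1 rose, 2 fell and 1 did not pass. Epithelial and endothelial sums of control 6 were thus within the knockout range and above control 1 to 5. Control 6 was the highest library for the macrophage and leukocyte markers and the lowest control for the ER genes. The part of any of these markers in the differences was not tested.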

How the data were processed

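RNA-seq of 12 libraries was analysed, 6 per genotype, grouped by the sample titles. The authors deposited expected counts per gene, estimated with RSEM 1.2.15 and Bowtie2 2.1.0, per the submitters' processing notes. Those notes name a human build although the symbols are mouse, which leaves the build of the counts uncertain. The annotation and strand setting are unknown here, so near-identical or overlapping genes are uncertain. Between 2.67% and 3.48% of the values per library had decimals, and all were rounded to whole numbers.

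Low genes were removed with filterByExpr (at least 10 counts, total 15). Libraries were scaled by TMM, and genotype, the only term, was tested by quasi-likelihood with edgeR 4.0.16 (R 4.3.3), Benjamini-Hochberg adjusted over 12146 genes with a threshold of 0.05. The procedure was tested on simulated data in which each library was drawn separately. That simulation held no sets of near-identical libraries, so it does not show how the p-values behave with them. CPM uses the scaled library sizes. Values between sets come from log2 CPM of summed counts with a prior count of 0.5. Promoter windows came from RefSeq (GRCm38.p6). Totals of 6543013 to 16458689 counts per library leave few counts only for Derl3 among the 33 genes.

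The 33 genes, their roles, the pathway lists and the marker lists were chosen with earlier results of these data known. All 33 genes are named, and from each list of other pathway genes up to 3 called genes with the smallest adjusted p in each direction. Calr was named after its value was seen. Marker lists are given as sums and counts, with single genes where at or near 0 or highest of their list, and 1 marker gene is not reported here. Alternatives were other scalings and filters, DESeq2 1.42.0, limma-voom (limma 3.58.1), a replicate block, each library left out in turn, fits without knockout 5 and 6 or control 6, 4 summed sets, a fit without Rn45s and, added after the data were seen, a fit with control 6 as the only control.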

Additional observations from a re-analysis of the deposited data

Results flagged for a closer look

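Within each group of 6 libraries, the highest or lowest level of a gene was set against Dixon's 95% critical value for 6 samples, which chance passes in about 1 of 20 groups. Of 66 checks (33 genes, 2 groups), 30 passed, and 29 of these were control 6, as the lowest control for 28 genes and the highest for 1. All genes were read in the same libraries, and control 6 stands apart over all genes, so the 66 are not separate tests. The check looks at 1 extreme library and cannot flag a pair such as knockout 5 and 6. It was not run over all tested genes.

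For the sensor gene Atf6 control 6 read 129.5 CPM, and for Xbp1 115.0. Among chaperones it read 1978 CPM for Hspa5, 503 for Hyou1, 2613 for Hsp90b1, 38.3 for Dnajb9, 179.6 for Dnajb11, 274 for Dnajc3 and 56.7 for Sdf2l1. Among lectins, isomerases and secreted proteins it read 1160.4 CPM for Canx, 1753 for P4hb, 711 for Pdia4, 719 for Pdia6, 630.5 for Txndc5, 103 for Creld2 and 189.0 for Manf. Each of these was the lowest of the 6 controls.

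Among ERAD genes, the control 6 level was 158 CPM for Edem1, 29.8 for Edem2, 233 for Os9, 388 for Sel1l, 113 for Syvn1, 95.7 for Herpud1, 237 for Derl1, 49.4 for Derl2 and 1.78 for Derl3, again the lowest control. For Edem3 it was 99.2 CPM, the highest control, with the next at 68.7. Among translocon genes it was 391 CPM for Sec61a1, 55.4 for Sec61b and 345 for Ssr1. The single case outside control 6 was Dnajb9 in knockout 3, at 48.9 CPM, the highest of the 6 knockout libraries, with the next at 40.7.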

How the results depend on the processing

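The number of the 33 genes that fell was 28 with all 12 libraries and between 28 and 31 under every alternative except the fits on 4 summed sets and with control 6 as the only control, where it was 0 and 0. The number of all genes called was 5219, and 4432 to 6069 when each library was left out in turn. It was 8827 without knockout 5 and 6 and control 6, 0 on the 4 summed sets and 19 with control 6 as the only control. The number of the 33 that rose was 0, and 0 to 1 when each library was left out (Spcs1 without knockout 6, Edem3 without control 6). It was 2 without knockout 5 and 6 and 2 without these and control 6 (Edem3 and Spcs1 in both). With control 6 as the only control, 4 of the 33 changed sign: Dnajb9 (0.080) and Sec61b (0.21), which had fallen, and Derl2 (0.26) and Edem3 (-0.12), which had not passed the test. Both Ern1 and Eif2ak3 were called lower in the fits without knockout 5 and 6, Ern1 also without knockout 6 and Eif2ak3 also with limma-voom. With library totals alone the median log2 difference of all genes was -0.04, and 41.6% of the called genes rose, against 49.8%. No library left out moved the fold of any of the 33 by over 1.5 times, the largest move being 1.29 times. This check says little, since the others of a set of near-identical libraries stay in the fit. Control 1 to 5 correlated at 0.996 to 0.998. Leaving out all of control 1 to 5 took the log2 difference of Hspa5 from -2.59 to -0.42. A replicate block, by the numbers of the titles, gave 3974 genes, with 29 of the 33 lower and Derl2 added (adjusted p 0.0492 with edgeR). Deviations of same-numbered libraries correlated at -0.364 to 0.184, so the numbers are not taken as pairs. Only 1 of the 33, Derl3, has fewer than 20 counts in any library. The 12 libraries fall into 4 sets, and the p-values count libraries of a set as separate samples.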
